A study of Arabidopsis thaliana with 6 samples.

Results

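The xyloglucan endotransglucosylase/hydrolase (XTH) family of Arabidopsis was compared between germinated seeds in which desiccation tolerance had been restored and untreated ones. Its 33 members, XTH1 to XTH33, were picked by their locus identifiers, and all 33 were found among the 30509 genes of the deposited table. RNA came from whole Arabidopsis seeds (Columbia, Col-0) that were all kept for 72 hours at 4 °C (cold stratification) and then germinated at 22 °C to stage II, the moment at which the radicle protrudes. DT (desiccation-tolerant) seeds were incubated for 3 days at 22 °C in a solution of -2.5 MPa made with polyethylene glycol (PEG), an osmoticum that draws water out of the seed, and DS (desiccation-sensitive) seeds of the same stage were not treated. Each group had 3 arrays, on Affymetrix Arabidopsis SNPtile arrays, and every value below is the deposited log2 signal of a gene on one array. Germination took place in constant white light and the PEG incubation in the dark, so light, PEG and the added time cannot be told apart. In RNA of whole seeds, fewer cells of a type and less RNA per cell cannot be told apart either.

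Xyloglucan is the main hemicellulose of the primary wall of dicotyledonous plants, a glucan chain with xylose side chains that coats and links cellulose microfibrils. XTH enzymes cut this chain and join the new end to another xyloglucan (endotransglucosylase activity) or to water (hydrolase activity), and are known for their part in wall loosening and wall reinforcement during cell expansion. The family is usually divided into group I/II, whose characterised members transfer chains, group IIIA, in which hydrolysis has been measured for XTH31, and group IIIB. Plant genomes carry several XTH genes side by side, as products of tandem duplication.

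XTH enzymes share a short stretch with 2 glutamates, the nucleophile and the acid/base catalyst. It is shown because it marks the family, for the member with the largest fall, XTH18, beside other members. The codons of both glutamates are in capitals, in the coding strand of the TAIR10.1 assembly (RefSeq annotation), each within 1 exon.
XTH18, chr4:14826569-14826595, minus strand: gatGAGattgatttcGAGttcttagga
XTH19, chr4:14829561-14829587, minus strand: gatGAGattgatttcGAGtttttgggg
XTH17, chr1:24257682-24257708, plus strand: gatGAGatcgatttcGAGttcttggga
XTH24, chr4:14820042-14820068, minus strand: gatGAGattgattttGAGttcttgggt
XTH5, chr5:4475714-4475740, minus strand: gatGAGatagactttGAGtttctaggg
XTH31, chr3:16447882-16447908, minus strand: gatGAGgtcgatatcGAGtttctaggg
Of these 27 bases, XTH17 differs from XTH18 at 2, XTH19 and XTH24 at 3, and XTH5 and XTH31 at 6. Among members not shown, XTH12 (60.2% identical coding bases to XTH18) differs at 2 and XTH20 (85.6%) at 4. The counts are thus no measure of relatedness. The stretch was found in 32 of the 33 coding sequences, in 32 different spellings, and no match was found in that of XTH11.

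XTH transcripts were mostly lower after PEG. Of the 33 members, 19 fell, 2 rose and 12 did not pass the test, which was limma's moderated test over all genes with Benjamini-Hochberg adjustment at 0.05. Of all genes tested, 19.9% passed in the lower direction and 9.97% in the higher direction. With arrays centred on the same median these shares were 17.1% and 13.3%, and with quantile normalization repeated on the gene values they were 16.5% and 14.7%, while 18 members fell under either scaling. The median log2 fold change (DT minus DS) of the members was -0.49, and that of all genes was -0.02. By sign alone, 26 members were lower in DT and 7 were higher. In 19 members all 3 DT arrays lay below all 3 DS arrays, which held for 27% of all genes, and in 2 they all lay above, which held for 15.5%.

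The level of annotated pseudogenes served as a measure of the array's background: 95% of the 2862 loci annotated as pseudogenes had a mean log2 signal below 4.93. The genes whose mean over all 6 arrays was under this level were then left out. Of the 17 members tested, 16 fell and 1, XTH5, rose, and of all genes kept 40.6% fell and 23% rose. Most members kept had a DT mean under the level and passed this filter only through their DS values. Their direction was thus partly set by the filter, and the count of 16 is no separate support. In DS, 19 members had a mean above the level, and in 14 of them the DT mean was under it, at 4.49 to 4.82. The sizes given for these 14 are differences in signal, measured against DT values at the background. XTH5, XTH19, XTH27, XTH28 and XTH31 kept a DT mean above it.

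**Figure D1:**
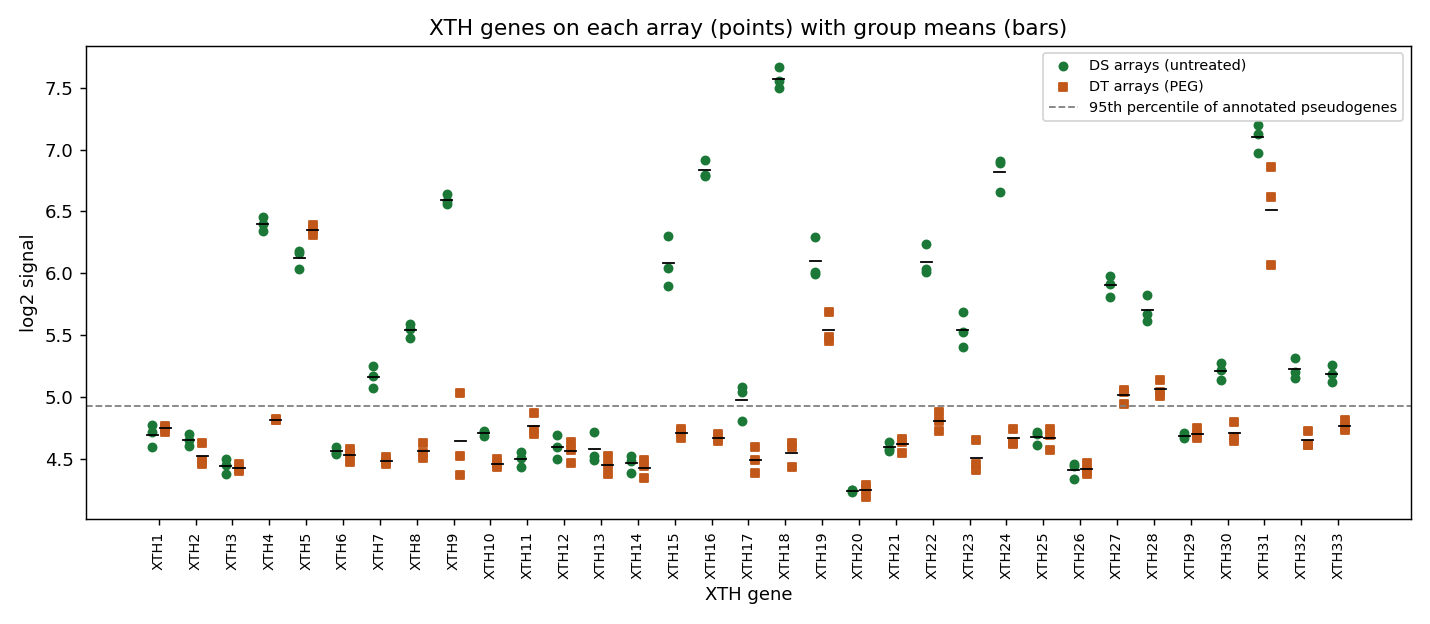
Deposited log2 signal (vertical axis) of each of the 33 XTH genes (horizontal axis) on the 3 DS arrays (circles) and the 3 DT arrays (squares), with bars for the group means and a dashed line at the pseudogene level of 4.93. The circles of 19 genes have a mean above the line, and the squares stay above it in 5 of them: XTH5, XTH19, XTH27, XTH28 and XTH31.

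The largest falls came from 8 members that were lower by a log2 fold change of at least 1, a 2-fold difference, at an unadjusted p of at most 0.05. They were XTH4, XTH9, XTH15, XTH16, XTH18, XTH22, XTH23 and XTH24, and 1.36% of all genes met the same rule. No member, 0 of 33, was higher by that rule, which 0.862% of all genes met. In all, 21 members had an unadjusted p from limma of at most 0.05, as did 11591 of all 30509 genes. All 8 belonged to group I/II, and the DS and DT arrays of each were separate.

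XTH18 (AT4G30280, chromosome 4 from 14825757 to 14827211), a gene known from roots, had log2 signals of 7.66, 7.50 and 7.55 in DS and 4.63, 4.43 and 4.60 in DT. It fell by 3.02 on the log2 scale (SE 0.07, 95% interval -3.18 to -2.86, adjusted p = 2.22e-07 from limma), the largest measured fall of the family. All DT arrays were at the pseudogene level, and no DS array was near it.

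XTH24 (AT4G30270, chromosome 4 from 14819192 to 14820595), first described as the meristem gene MERI5, lies next to XTH18 on the same strand. Its signals were 6.66, 6.89 and 6.91 in DS and 4.62, 4.64 and 4.75 in DT. The fall was 2.15 on the log2 scale (SE 0.08, adjusted p = 1.25e-06 from limma). Both groups were tight and lay far apart.

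XTH15 and XTH16 are close relatives known from petiole elongation in shade, with 80.5% identical bases in their coding sequences. XTH16 (AT3G23730, chromosome 3 from 8550037 to 8551403) had signals of 6.92, 6.79 and 6.78 in DS and 4.70, 4.65 and 4.67 in DT, a fall of 2.16 (SE 0.05, adjusted p = 2.67e-07 from limma). XTH15 (AT4G14130, chromosome 4 from 8137020 to 8138392) had 6.30, 6.04 and 5.90 in DS and 4.75, 4.72 and 4.67 in DT, a fall of 1.37 (SE 0.10, adjusted p = 2.74e-05 from limma). In both genes DT reached the pseudogene level, and the DS arrays of XTH15 were more scattered than those of XTH16.

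XTH9 (AT4G03210, chromosome 4 from 1415617 to 1417444), known from the shoot apex, had signals of 6.64, 6.59 and 6.56 in DS and 5.04, 4.37 and 4.52 in DT. Its fall of 1.95 had the widest error among these 8 genes (SE 0.15, 95% interval -2.30 to -1.60, adjusted p = 4.66e-05 from limma). The spread came from DT replicate 1, the only DT array above the pseudogene level, and the fall was between 1.82 and 2.15 when 1 array at a time was left out.

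XTH4 and XTH5 are each other's closest relatives in the family (71.5% identical coding bases), and they moved in opposite directions. XTH4 (AT2G06850, chromosome 2 from 2763449 to 2765743), first described as EXGT-A1, had signals of 6.35, 6.46 and 6.40 in DS and 4.81, 4.82 and 4.82 in DT. It fell by 1.58 (SE 0.05, 95% interval -1.69 to -1.47, adjusted p = 6.14e-07 from limma). XTH5 (AT5G13870, chromosome 5 from 4474922 to 4477090) had 6.04, 6.16 and 6.18 in DS and 6.39, 6.35 and 6.31 in DT. It rose by 0.22 (SE 0.06, 95% interval 0.09 to 0.35, adjusted p = 0.0176 from limma). XTH5 was thus the only member clearly above the background in both groups that did not fall, and its rise was small. The rise missed the threshold without DS replicate 1 (0.18, adjusted p = 0.0538 from limma) and without DT replicate 2 (0.22, adjusted p = 0.0513).

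XTH22, better known as TCH4, was identified as a gene switched on by touch, and XTH23 (XTR6) is its closest relative (79.2% identical coding bases). XTH22 (AT5G57560, chromosome 5 from 23307006 to 23308680) had signals of 6.23, 6.04 and 6.01 in DS and 4.88, 4.81 and 4.73 in DT, a fall of 1.29 (SE 0.07, adjusted p = 9.62e-06 from limma). XTH23 (AT4G25810, chromosome 4 from 13128394 to 13129927) had 5.69, 5.53 and 5.41 in DS and 4.65, 4.41 and 4.46 in DT, a fall of 1.03 (SE 0.09, adjusted p = 8.33e-05 from limma). Both ended at the pseudogene level. XTH23 stood at the edge of the 2-fold rule, with -0.96 without DS replicate 1, -0.98 without DT replicate 2, -0.99 after centring and -0.98 after a second quantile normalization.

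The remaining 11 members that fell did so by less than 2-fold, from XTH8 at -0.98 to XTH10 at -0.25. XTH8 had signals of 5.56, 5.48 and 5.59 in DS and 4.51, 4.55 and 4.63 in DT (adjusted p = 9.03e-06 from limma), and its change was -1.01 without DS replicate 2 or without DT replicate 3. XTH7 fell by 0.68, XTH17 by 0.49 and XTH10 by 0.25, the last with both group means under the pseudogene level.

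**Figure D2:**
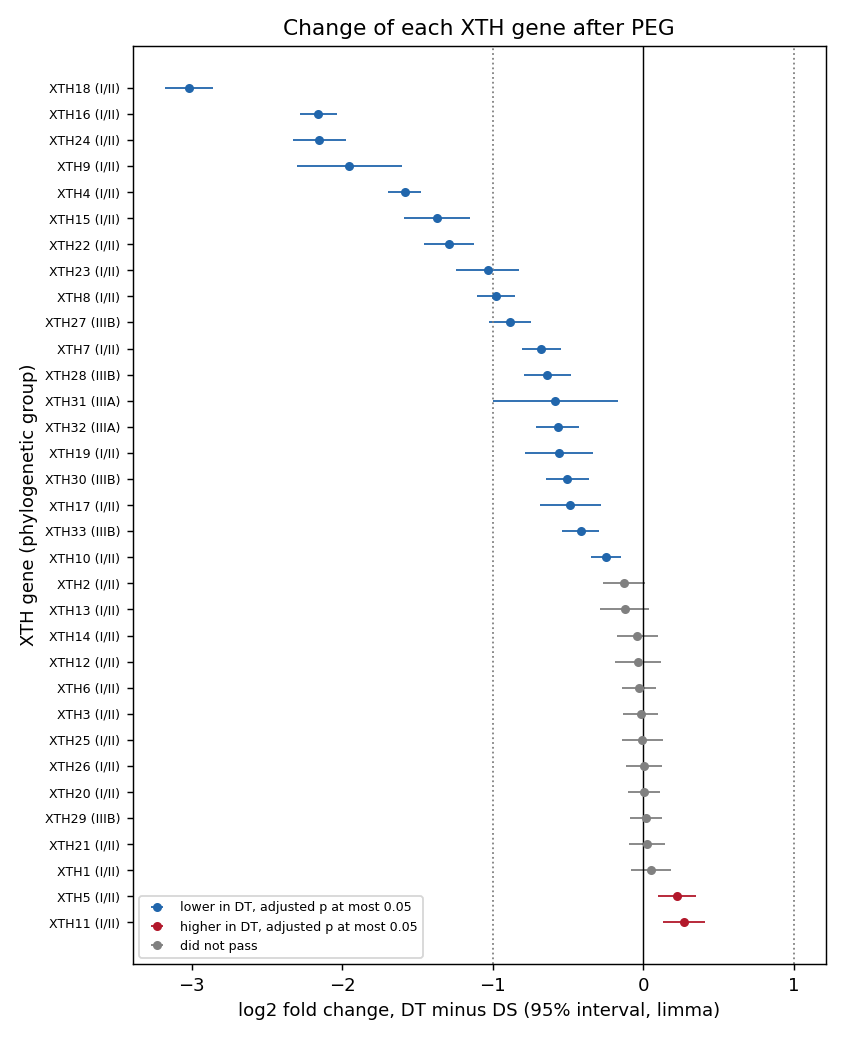
Log2 fold change, DT minus DS (horizontal axis), of the 33 XTH genes ordered by size (vertical axis, phylogenetic group in brackets), with 95% intervals from limma and dotted lines at a 2-fold difference. The 8 genes to the left of the lower dotted line are all of group I/II, and the 2 genes that rose, XTH5 and XTH11, stay well inside the upper one.

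No member of group III fell by 2-fold. Of its 7 members, XTH27 to XTH33, 6 fell and 0 rose. Of the 26 members of group I/II, 13 fell, 8 of them by 2-fold, and 2 rose. Among all genes 19.9% fell, 1.36% by 2-fold, and 9.97% rose. DS means were above the pseudogene level in 6 members of group III and in 13 of group I/II. The member of group III that did not pass was XTH29. XTH27 (EXGT-A3), known from tracheary elements of leaf veins, had signals of 5.92, 5.81 and 5.98 in DS and 5.04, 4.94 and 5.06 in DT, a fall of 0.89 (SE 0.06). XTH28, its closest relative (77.4% identical coding bases) and known from stamen filaments, fell by 0.64 (SE 0.07). Both kept DT signals just above the pseudogene level. XTH32 fell by 0.57, XTH30 by 0.51 and XTH33, a member found at the cell surface, by 0.42.

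XTH31 of group IIIA had the most scattered DT arrays of the family (SD 0.40). Its signals were 7.13, 6.97 and 7.20 in DS and 6.07, 6.62 and 6.86 in DT. The groups did not overlap, and DT replicate 1 was the lowest. The fall of 0.58 (SE 0.18, 95% interval -0.9996 to -0.17) only just passed (adjusted p = 0.0421 from limma). It did not pass without DS replicate 1, 2 or 3 (adjusted p = 0.107, 0.0652 and 0.126 from limma) or without DT replicate 2 (0.0675), nor with centred arrays (0.0539), repeated quantile normalization (0.0561) or a robust prior (0.0517). Without DT replicate 1 the change was -0.36, and without DT replicate 3 it was -0.75.

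Tandem groups, of which there are 4, hold 11 of the members, with 3 groups on chromosome 4 and 1 on chromosome 5, and within each group the genes share 1 strand. Of these 11, 5 fell, 4 of them by 2-fold, and 0 rose, while of the 22 members elsewhere 14 fell, 4 by 2-fold, and 2 rose. Over all genes 19.9% fell, 1.36% by 2-fold, and 9.97% rose. DS means were above the pseudogene level in 5 of the 11 and in 14 of the 22. For each pair of adjacent loci on a chromosome, the difference between their changes was tested within arrays with limma, over all 30504 adjacent pairs of the table. Of the 6 adjacent XTH pairs, 4 passed, and 36.4% of all adjacent pairs passed. In each pair that passed except XTH18 and XTH19, both genes had DT means under the pseudogene level.

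The group of XTH24, XTH18 and XTH19 on chromosome 4 holds both the largest fall and a member that fell by less than 2-fold. XTH19 (AT4G30290, chromosome 4 from 14828712 to 14830224), another root gene, had 6.01, 6.30 and 5.99 in DS and 5.45, 5.69 and 5.49 in DT, a fall of 0.56 (SE 0.10, adjusted p = 0.00318 from limma). The DT arrays were all below the DS arrays and all above the pseudogene level. The change of XTH18 was lower than that of XTH19 by 2.46 on the log2 scale (difference -2.46, 95% interval -2.80 to -2.12, adjusted p = 7.33e-06 from limma). XTH24 minus XTH18 gave a difference of 0.87 (95% interval 0.60 to 1.13, adjusted p = 0.000564 from limma). Since both had DT means under the pseudogene level (4.67 and 4.55), this value mostly reflects their DS means of 6.82 and 7.57, which come from different probes, and it does not show that one fell by more. Of the flanking loci, AT4G30260 (YIP4b) fell by 0.29 and ABCE3 had a change of -0.11 that did not pass.

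On chromosome 5, XTH12, XTH13, XTH25 and XTH22 follow each other, with the small locus AT5G57535 between the first 2. Only XTH22 changed. XTH12 had 4.51, 4.70 and 4.60 in DS and 4.58, 4.64 and 4.47 in DT. XTH13 had 4.49, 4.53 and 4.72 in DS and 4.45, 4.38 and 4.53 in DT. XTH25 had 4.70, 4.62 and 4.72 in DS and 4.74, 4.70 and 4.57 in DT. In each of these 3 the groups overlapped and every array was under the pseudogene level. At that level a fall could hardly be seen. XTH25 minus XTH22 differed by 1.28 (95% interval 1.10 to 1.47, adjusted p = 8.83e-06 from limma). XTH22 also had a DT mean under the level (4.81), so this value mostly reflects its DS signal. The difference does not show that XTH25 responded otherwise. XTH13 minus XTH25 did not pass (-0.12, 95% interval -0.34 to 0.10, adjusted p = 0.393 from limma). Neither flanking locus passed, with changes of 0.05 for ZFP2 and 0.03 for AT5G57565, nor did AT5G57535 with 0.19.

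The other pair that differed was XTH23 and XTH14. XTH14 (AT4G25820, chromosome 4 from 13130291 to 13131860), known from root hairs, had 4.53, 4.39 and 4.49 in DS and 4.49, 4.44 and 4.35 in DT, with overlapping groups. XTH23 minus XTH14 was -0.99 (95% interval -1.21 to -0.78, adjusted p = 7.24e-05 from limma). XTH14 was under the pseudogene level on every array, and XTH23 had a DT mean under it (4.51). The value thus mostly reflects the DS signal of XTH23, and it does not show that XTH14 responded differently. The flanking loci moved in opposite directions, AT4G25800 (a calmodulin-binding protein) up by 0.17 and AT4G25830 (CASPL2C1) down, with a log2 fold change of -0.46.

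In the pair of XTH1 and XTH2, neither gene passed. XTH1 (AT4G13080, chromosome 4 from 7626548 to 7628395) had 4.60, 4.78 and 4.72 in DS and 4.72, 4.77 and 4.75 in DT. XTH2 (AT4G13090, chromosome 4 from 7631535 to 7632876) had 4.70, 4.61 and 4.65 in DS and 4.63, 4.48 and 4.46 in DT. All arrays of both genes were under the pseudogene level, and their changes of 0.05 and -0.13 differed by 0.18 (95% interval -0.04 to 0.40, adjusted p = 0.189 from limma). XTH2 passed when DT replicate 1 was left out (-0.18, adjusted p = 0.0358). The flanking loci RALFL30 (-0.04) and LCR37 (-0.16) did not pass.

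**Figure D3:**
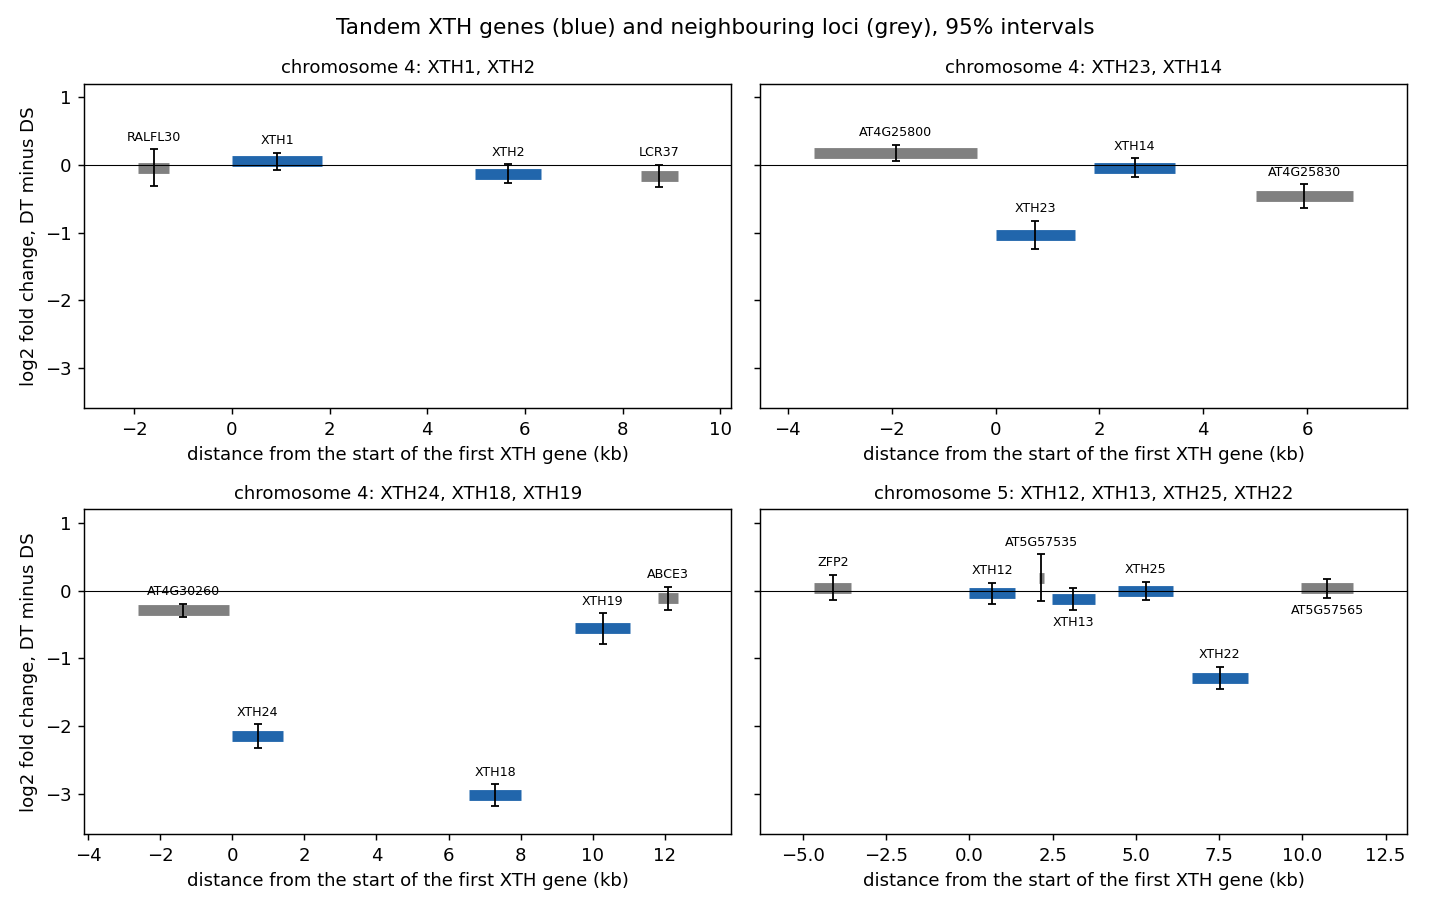
Log2 fold change, DT minus DS (vertical axis), of the tandem XTH genes (blue) and the neighbouring loci (grey) against the distance from the start of the first XTH gene in kb (horizontal axis), with bar length for gene length and 95% intervals from limma. XTH18 at -3.02 lies beside XTH19 at -0.56, XTH22 at -1.29 beside XTH25 at -0.01 and XTH23 at -1.03 beside XTH14 at -0.04. XTH25 and XTH14 were under the pseudogene level on every array.

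The split between XTH18 and XTH19 was set against their sequences, because near-identical genes can share array signal. Their coding sequences are 87.4% identical, and the longest identical run is 68 bases within 1 exon. The run is shown with the aligned bases of XTH17 and XTH20, in which capitals mark bases different from XTH18.
XTH18, chr4:14826483-14826550, minus strand: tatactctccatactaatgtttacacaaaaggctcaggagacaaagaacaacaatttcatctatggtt
XTH19, chr4:14829475-14829542, minus strand: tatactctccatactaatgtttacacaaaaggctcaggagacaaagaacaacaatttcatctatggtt
XTH17, chr1:24257727-24257794, plus strand: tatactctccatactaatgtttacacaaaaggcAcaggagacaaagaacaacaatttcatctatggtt
XTH20, chr5:19482610-19482677, plus strand: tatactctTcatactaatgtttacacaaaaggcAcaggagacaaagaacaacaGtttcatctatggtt
XTH17 differs at 1 of these bases and XTH20 at 3. How signals of probes that match more than 1 of these genes were assigned is not given in the sources used here, and the part of shared signal in their values was not tested. On the same arrays, XTH18 and XTH19 had the values given above. XTH17 had 5.08, 4.81 and 5.05 in DS and 4.60, 4.49 and 4.39 in DT, a fall of 0.49 (SE 0.09, adjusted p = 0.00353 from limma). XTH20 had 4.25, 4.23 and 4.25 in DS and 4.29, 4.19 and 4.26 in DT, with overlapping groups.

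The 250 bases upstream of the annotated start were compared only among XTH12, XTH13, XTH17 to XTH20, XTH22, XTH24 and XTH25. Among these, the closest pair was XTH17 and XTH18. The 150 bases before the start are shown for XTH17, XTH18 and XTH19, with the run that XTH17 and XTH18 share in capitals.
XTH17, chr1:24256904-24257053, plus strand: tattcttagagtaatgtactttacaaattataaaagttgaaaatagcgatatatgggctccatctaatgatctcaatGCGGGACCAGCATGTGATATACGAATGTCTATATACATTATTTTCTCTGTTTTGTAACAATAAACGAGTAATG
XTH18, chr4:14827212-14827361, minus strand: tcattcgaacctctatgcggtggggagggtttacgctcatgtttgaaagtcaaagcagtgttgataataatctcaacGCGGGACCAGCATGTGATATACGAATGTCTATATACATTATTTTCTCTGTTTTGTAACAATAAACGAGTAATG
XTH19, chr4:14830225-14830374, minus strand: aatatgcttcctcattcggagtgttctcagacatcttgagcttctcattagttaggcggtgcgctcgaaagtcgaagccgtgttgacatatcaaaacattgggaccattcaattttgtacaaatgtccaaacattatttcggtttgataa
The shared run is 73 bases long within the windows and reaches the last base before the start in both genes, where the windows end. Whether it goes on past the start was not examined. It was found in 2 of 30077 windows of 250 bases upstream of the genes of the annotation. XTH18 and XTH19, neighbours on chromosome 4, have upstream windows that are 48.6% identical with no shared word longer than 9 bases. The value for XTH17 and XTH18 is 60.1%, and every other pair compared lies between 37.4% and 50%. The changes of XTH17 and XTH18 were -0.49 and -3.02, with DS means of 4.98 and 7.57 and DT means of 4.49 and 4.55, both at the pseudogene level.

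The same upstream windows of 250 bases were searched for short motifs, as a description of letters only. The ABA-response core ACGTG, on either strand, was present in 5 members (XTH6, XTH13, XTH14, XTH25 and XTH26) and in 22.1% of all windows, and in 0 of the 8 members that fell by 2-fold. None of these 5 members passed the test, and all had signals under the pseudogene level. The G-box CACGTG, which contains that core, was in 0 members and 6.11% of all windows. The dehydration-response core CCGAC was in 1 member (XTH20) and 12.2% of windows, the auxin-response element TGTCTC in 2 members (XTH3 and XTH6) and 10.8%, and the brassinosteroid-response element CGTGCG in 0 members and 1.52%, all on either strand. The TATA box TATAAA on the strand of the gene was in 15 members, 3 of the 8 that fell by 2-fold among them, and in 31.7% of all windows.

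**Figure D4:**
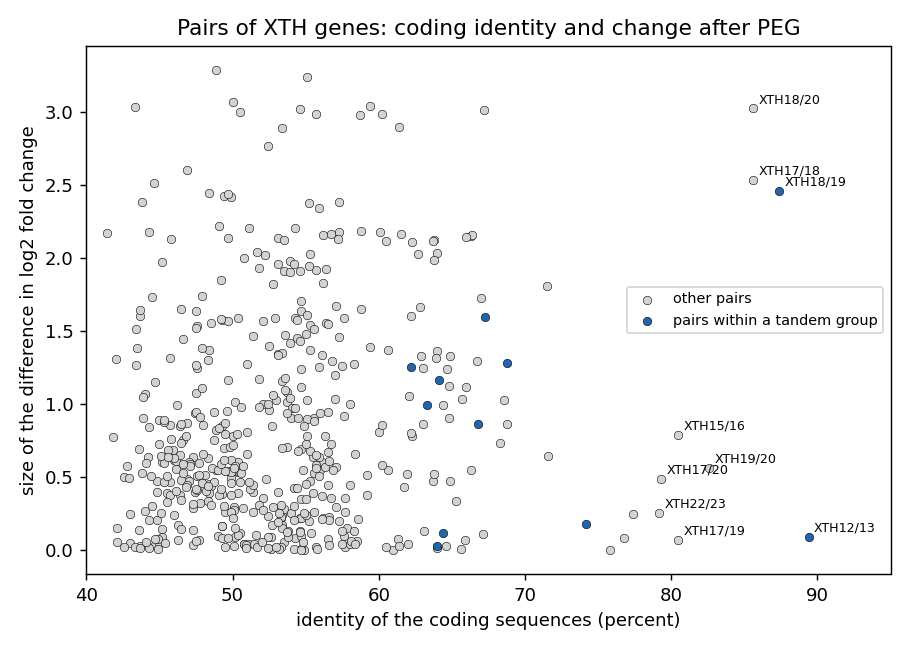
Size of the difference between the log2 fold changes of 2 XTH genes (vertical axis) against the identity of their coding sequences in percent (horizontal axis), 1 point for each pair, with pairs of the same tandem group in blue. XTH18 and XTH19 (87.4% identical) lie high at a difference of 2.46, and XTH12 and XTH13 (89.4% identical), whose arrays were all under the pseudogene level, lie near 0.

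Coding identity and change were thus set side by side for all pairs, whose points share genes and arrays and were not tested. Among the closest pairs, XTH12 and XTH13 (89.4%) had changes of -0.04 and -0.13, XTH17 and XTH19 (80.5%) had -0.49 and -0.56, and XTH17 and XTH18 (85.6%) had -0.49 and -3.02. Changes were set beside gene structure as well. Of the 19 members with 4 exons, 11 fell, 2 by 2-fold, and 2 rose. Of the 14 with 3 or fewer, XTH12 to XTH25, 8 fell, 6 by 2-fold, and 0 rose. For all genes the shares were 19.9% lower, 1.36% by 2-fold, and 9.97% higher. Every member that fell, except XTH10, had a DS mean above the pseudogene level. A link between exon number and change was not tested.

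Of the members that did not fall, XTH5 and XTH11 rose. XTH11 (AT3G48580, chromosome 3 from 18007098 to 18008535) had signals of 4.44, 4.51 and 4.56 in DS and 4.87, 4.70 and 4.74 in DT, so the groups did not overlap and every array was under the pseudogene level. The rise was 0.27 (SE 0.06, 95% interval 0.13 to 0.41, adjusted p = 0.0114 from limma). The other 12, XTH1, XTH2, XTH3, XTH6, XTH12, XTH13, XTH14, XTH20, XTH21, XTH25, XTH26 and XTH29, had log2 signals of 4.19 to 4.78 on every array. In all 12 the DS and DT arrays overlapped, the adjusted p from limma was between 0.157 and 0.974 and the 95% intervals of the changes lay within -0.29 and 0.18. The means of these genes were under the pseudogene level in both groups, as were those of XTH10, which fell by 0.25.

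Genes known from roots and root hairs were found on both sides. Of XTH14, XTH17, XTH18, XTH19, XTH20, XTH21 and XTH26, 3 of 7 fell (XTH17, XTH18 and XTH19), the 3 with DS means above the pseudogene level. The other 4 were among the 12 under it. Of the other 26 members, 16 had DS means above the level, 16 fell and 2 rose. Of all genes, 19.9% fell and 9.97% rose. Of 6 root hair markers, a cell type that appears after stage II, EXPA7, EXPA18, LRX1 and COBL9 were under the pseudogene level in both groups and did not pass, and PRP3 (-0.24, also under that level) and RHD6 (-0.25) fell. Their summed linear signal was 155 to 167 in DS and 146 to 154 in DT.

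The genes that build and trim xyloglucan were mostly lower too, though none by 2-fold. Of 19 such genes, 14 fell, 2 rose and 3 (XXT4, FUT1 and BGLC1) did not pass, and 0 changed by 2-fold, with changes from -0.85 to 0.20 and a median of -0.32. Of all genes, 19.9% fell and 9.97% rose, and 1.36% fell and 0.862% rose by 2-fold. Genes with a mean over all arrays under the pseudogene level were also left out. Of the 13 such genes kept, 10 fell and 1 rose, against 40.6% and 23% of all genes kept. Among the 15 synthesis genes 11 fell, the most being CSLC4 (chromosome 3 from 10505711 to 10509265), the main synthase of the glucan backbone in this species. Its signals were 5.75, 5.85 and 5.86 in DS and 4.94, 4.99 and 4.97 in DT, a fall of 0.85 (SE 0.05, adjusted p = 1.2e-05 from limma), with no overlap between the groups. XXT5, a xylosyltransferase, fell by 0.63 (adjusted p = 0.000483 from limma), and AXY4, which acetylates xyloglucan, by 0.60 (adjusted p = 8.17e-05). The 2 that rose were XLT2, a galactosyltransferase, by 0.20 (adjusted p = 0.0319 from limma), and AXY4L, a relative of AXY4, by 0.18 (adjusted p = 0.0283). Neither rise passed without DS replicate 1, DS replicate 3, DT replicate 2 or DT replicate 3, when 0 of the 19 genes rose. In the apoplast, xyloglucan chains are trimmed by glycosidases. Of the 4 trimming genes, the alpha-xylosidase XYL1 (-0.52), the alpha-fucosidase AXY8 (-0.50) and the beta-galactosidase BGAL10 (-0.38) fell, and the beta-glucosidase BGLC1 had a change of 0.11 with overlapping groups (adjusted p = 0.348).

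**Figure D5:**
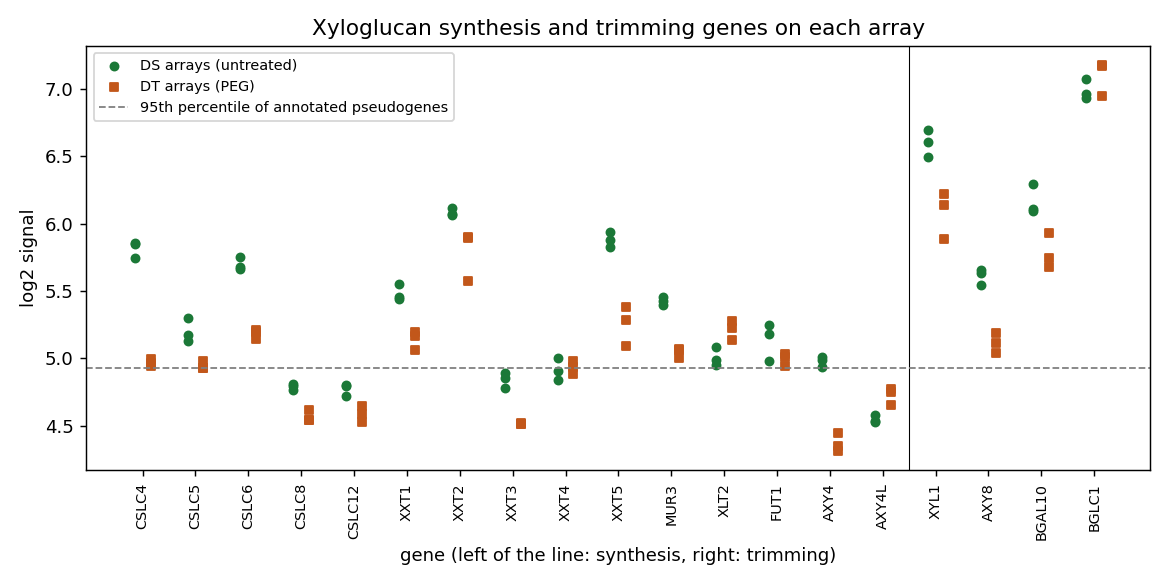
Deposited log2 signal (vertical axis) of 15 genes of xyloglucan synthesis (left of the line) and 4 of trimming (right of it) on the 3 DS arrays (circles) and 3 DT arrays (squares), with a dashed line at the pseudogene level of 4.93. Squares lie under circles in 14 genes, CSLC4 with the widest gap, and over them in XLT2 and AXY4L.

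Other measures of the whole seeds moved with the same contrast. The summed linear signal of 6 seed storage genes was 181 to 186 in DS and 2053 to 2219 in DT, with 6 of 6 higher, and that of 3 endosperm markers was 213 to 257 in DS and 301 to 406 in DT, with MAN7 (1.21) and EXPA2 (0.54) higher and EPR1 (0.17) not passing. Of 5 pollen and flower markers, not expected in these seeds, 0 passed (limma, 1 at an unadjusted p of at most 0.05), with sums of 114 to 120 and 108 to 119. The part of these shifts in the XTH values was not tested. Array medians were 4.76 to 4.78 in DS and 4.72 to 4.73 in DT. Across genes, 2 DS arrays correlated at 0.972 to 0.977, 2 DT arrays at 0.957 to 0.975, and a DS with a DT array at 0.798 to 0.819.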

How the data were processed

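Probe signals of the 6 arrays were read out by the authors in R, with gene models from TAIR9. They were quantile normalized, and the authors deposited a single log2 value for each gene. Neither the summary over probes nor the background step is given in the sources used here. Groups came from the sample titles.

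The deposited log2 values of DT and DS were fitted over all 30509 genes with limma 3.58.1 in R 4.3.3, using lmFit and eBayes without covariates (3.71 prior degrees of freedom) and Benjamini-Hochberg adjustment. A second count used the filter of the study, a 2-fold difference (log2 of 1) with p no higher than 0.05. With 3 arrays a group, exact permutation cannot go below p = 0.1. Precision is limited by the 3 arrays of each group. The labels call the replicates biological but do not say whether seeds were grown or treated separately, so p-values measure only the spread between these samples. Both fits were tested on simulated data.

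Of the loci, 30078 were in the TAIR10.1 annotation from RefSeq and 431 were not. This annotation gave positions and sequences, read with Python 3.11.15. The longest coding sequence of each locus was aligned globally with Biopython 1.88. Identity is the share of identical bases among all columns of the alignment, gaps included. Members, lists and tests were chosen with earlier results of these data known. By rule, values on every array are given for members past the 2-fold filter, those that rose and those in tandem groups, and the locus flanking each group and up to 3 of the largest falls and rises of the xyloglucan list are named. XTH7, XTH8, XTH10, XTH17, XTH20, XTH27 and other members named with values were picked after their values were seen. Alternatives were the replicate block, each array left out, centred arrays, repeated quantile normalization, an intensity trend, a robust prior and dim genes left out.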

Additional observations from a re-analysis of the deposited data

How the results depend on the processing

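Counts kept within 1.5 times of those reported under most alternatives. With 1 array left out at a time, 18 to 20 members fell, 7 to 9 by 2-fold, and 1 to 2 rose, the median was -0.47 to -0.43, and 12 to 14 xyloglucan genes fell and 0 to 2 rose. The count of members that rose was 1 without DS replicate 1 and without DT replicate 2. Leaving out genes with a mean under the pseudogene level kept 17 members, 13 xyloglucan genes and 2 adjacent XTH pairs. Of these, 16 members fell and 1 rose, with a median of -0.98, 1 xyloglucan gene rose and 2 pairs passed. Fewer genes were tested, and most members kept passed this filter only through their DS values. Deviations from the group means correlated at 0.06, -0.01 and 0.10 between same-numbered arrays, and at -0.13 to 0.07 between differently numbered ones. The labels do not say whether replicates were paired. With the replicate block, 19 members fell and 2 rose, and 1 xyloglucan gene rose.

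Among members that did not pass, centring the arrays turned the sign of XTH3 (0.025), XTH6 (0.012), XTH12 (0.0060), XTH14 (0.0029) and XTH25 (0.035), and repeated quantile normalization that of XTH25 (0.029). With 1 array left out, XTH3 ranged from -0.051 to 0.011, XTH12 from -0.083 to 0.011, XTH14 from -0.081 to 0.00066, XTH20 from -0.017 to 0.032, XTH25 from -0.043 to 0.041, XTH26 from -0.034 to 0.027 and XTH29 from -0.0062 to 0.036. Most members that fell had DT means under the pseudogene level, which limits what the size of their change says.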
